A study of Rattus norvegicus with 26 samples.

Results

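The mRNA of 8 carbonic anhydrase family members and 2 cation-chloride cotransporters was followed in the dentate gyrus of 26 rats. The 10 genes were Car7, Car2, Car4, Car12, Car14, Car8, Car10, Car11, Slc12a5 and Slc12a2, out of 17910 Ensembl gene IDs in the deposited values. They were found by gene name and their transcript rows were summed by gene ID. Car4, Car8, Car11, Car12 and Car14 are listed in the values under the older names Ca4, Ca8, Ca11, Ca12 and Ca14, which the RefSeq gene table pairs with the names used here. Car8 and Slc12a5 had 2 rows each and the other 8 genes had 1. Car7 was chosen by its difference between doxorubicin and vehicle in these same rats, and the other members by family, so differences between those 2 groups are given for all 10 genes as a description, with no p, and nothing is read from a count of calls there.

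All rats were male F344 rats of 6 months, with 1 library per rat from the dentate gyrus of 1 hemisphere. The Veh group of 10 rats received vehicle and belonged to a separate ongoing study of brain aging. The Dox group of 8 rats received doxorubicin, an anthracycline used in chemotherapy, at 2 mg/kg weekly for 4 weeks. The Dox + ABT group of 8 rats received the same doxorubicin and also ABT-263 (navitoclax) at 12 mg/kg, a senolytic that inhibits Bcl-2 family proteins. No group received ABT-263 without doxorubicin.

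Carbonic anhydrases interconvert carbon dioxide and water with bicarbonate and a proton. In neurons they matter for inhibition, because GABA-A receptor channels pass bicarbonate as well as chloride. Chloride is pumped out of mature neurons by the potassium-chloride cotransporter KCC2, the product of Slc12a5, and is loaded into cells by the sodium-potassium-chloride cotransporter NKCC1, the product of Slc12a2. Cytosolic carbonic anhydrase VII, the product of Car7, supplies the bicarbonate that leaves through the receptor, so that Car7 and Slc12a5 together help to set whether GABA hyperpolarizes or depolarizes a neuron.

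The 250 bases before the annotated start of Car7 and of Slc12a5 are shown because these genes are the pair tied to GABA polarity, and because they are the stretch in which matches to common promoter motifs were counted. The sequences come from RefSeq on build GRCr8, which is not the build of the expression values, and are written 5′ to 3′ on the strand of the gene. Capitals mark matches to the GC box (GGGCGG, either strand) and the CCAAT box (CCAAT, either strand).
Car7, chr19:444915-445164, minus strand: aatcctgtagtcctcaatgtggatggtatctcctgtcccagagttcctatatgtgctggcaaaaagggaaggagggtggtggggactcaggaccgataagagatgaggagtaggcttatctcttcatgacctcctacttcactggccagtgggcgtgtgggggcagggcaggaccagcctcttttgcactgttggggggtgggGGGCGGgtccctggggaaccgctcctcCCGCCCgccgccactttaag
Slc12a5, chr3:174115583-174115832, plus strand: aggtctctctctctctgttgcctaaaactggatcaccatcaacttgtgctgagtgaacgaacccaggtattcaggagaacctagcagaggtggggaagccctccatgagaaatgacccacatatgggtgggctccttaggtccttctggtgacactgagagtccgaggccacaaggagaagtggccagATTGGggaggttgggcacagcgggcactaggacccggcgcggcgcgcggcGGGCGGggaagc
The Car7 window held 2 GC boxes, beginning 47 and 20 bases before the start, and the Slc12a5 window held 1 GC box and 1 CCAAT box, beginning 12 and 62 bases before it. A GC box occurred in 32.4% and a CCAAT box in 34.3% of the 27457 windows of the same length in the table. Neither window held a TATA box (TATAAA), an E-box (CACGTG) or the cyclic AMP response element (TGACGTCA), which occurred in 13.1%, 5.79% and 1.70% of all windows. The table gave windows for 8 of the 10 members, all but Car2 and Car8, and 5 of the 8 held a GC box. These matches are letters in a window and were not tested for binding.

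The values are normalized counts, that is, estimated reads divided by each library's size factor, and levels are compared here only between rats for the same gene. Each library held an estimated 10164700 to 24312600 reads, and the group medians lay between 15105100 (Dox + ABT) and 16677650 (Veh). At this depth Slc12a5 rested on 3983 or more reads in every rat and Car7 on 135 or more, while Car8 rested on as few as 8.98. The libraries were split into 2 kinds along the leading axis of variation left after group means were removed, which carried 28.4% of that variance. The cut was placed at the widest gap in scores that left at least 5 libraries on each side, from 0.279 to 10.4. Wider gaps lay inside the first kind, such as that between Veh rats 10 and 11 (-36.4 and -48.5). The kinds are therefore a cut through a wide spread of scores, not separate classes. Of the 16 rats of the first kind 4 were Veh, 5 were Dox and 7 were Dox + ABT, and ribosomal protein genes took 0.573% to 1.09% of their normalized counts. Of the 10 rats of the second kind 6 were Veh, 3 were Dox and 1 was Dox + ABT, with 1.16% to 1.90%. Because the kinds were unevenly spread over the groups, values within the first kind are given beside the differences of the members, with those under the kind as a covariate where they add to them. The granule cell markers Prox1, C1ql2, Dsp and Calb1 were present in every group, with summed levels of 8177 to 13395 normalized counts over all rats, and Tdo2 was not in the values. Markers of pyramidal cells of the CA fields were present too and varied widely, from 2647 to 19989. In bulk tissue, fewer cells of a type and less RNA per cell cannot be told apart.

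Car7 was the member with the largest difference between Dox and Veh. In Veh it ranged from 201 to 306 normalized counts with a median of 252. In the 8 Dox rats it stood at 551, 573, 378, 329, 304, 354, 335 and 270. In Dox + ABT it ranged from 226 to 335 with a median of 256. The 2 Dox rats above 500 stood apart from every other rat, 6 of the 8 Dox rats were above the highest Veh rat, and 6 of the 8 Dox + ABT rats lay within the Veh range, with the other 2 (314 and 335) above it.

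Car7 averaged 258 ± 32.5 (SD) over the 10 Veh rats, 387 ± 113 (SD) over the 8 Dox rats and 270 ± 38.0 (SD) over the 8 Dox + ABT rats. Dox exceeded Veh by 0.55 on the log2(value + 1) scale (standard error 0.12), or 1.46-fold, and it was 0.71 within the first kind of library. Within the second kind, 3 Dox rats averaged 326 and 6 Veh rats 261. Without Dox rats 1 and 2, the highest in Car7, the difference between Dox and Veh was 0.35. Between Dox and Dox + ABT the difference was 0.48 (standard error 0.13), or 1.39-fold, and 4 of the 8 Dox rats lay above every Dox + ABT rat. That contrast uses the Dox values by which Car7 was chosen, so it is given with no test, and it was 0.28 without Dox rats 1 and 2 and 0.64 within the first kind.

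The comparison of Car7 that the choice used least, Dox + ABT with Veh, shares the Veh rats and showed a difference of 0.07 (95% interval -0.19 to 0.32, limma adjusted p = 0.786). An increase of more than 1.25-fold in Dox + ABT therefore lies outside this interval. The difference was 0.04 with library kind as a covariate and 0.07 within the first kind.

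Some marker lists moved with Car7 from rat to rat. After terms for group and kind of library, Car7 and the mean log2 level of 6 CA pyramidal cell markers, among them Wfs1, Fibcd1, Pou3f1, Bok and Coch, correlated over the 26 rats with r = 0.65 and rho = 0.71 (permutation test, adjusted p = 0.00558 and 0.0051 over 90 pairs of a member and a list). The r was 0.72 without Veh rat 6 and Dox rat 10, which deviated most in the list after group and kind, 0.60 without Dox rat 9 and Dox + ABT rat 4, which had the most extreme list levels themselves (an alternative chosen after seeing the data), 0.61 within the first kind of library and 0.78 within the second. Summed, these markers ran from 2805 to 14266 normalized counts over Veh, 2647 to 13603 over Dox and 3030 to 19989 over Dox + ABT. The medians were 7950, 6610 and 4419, so the groups overlapped and the Dox median was not the highest. Wfs1 was the largest part of this sum, which is not the mean log2 level that correlated with Car7. Bok (means of 736, 909 and 798, same order) and Coch (35.8, 42.5 and 37.5) were highest in Dox. Of all 6 markers, 2 were higher and 4 lower in Dox than in Veh, and 3 were higher and 3 lower in Dox than in Dox + ABT. With the score of these markers as a covariate, a setting chosen after seeing the data, Car7 differed by 0.57 between Dox and Veh and by 0.49 between Dox and Dox + ABT.

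Car7 also followed the red cell markers Hba-a2, Hba-a3, Hbb, Alas2 and Slc4a1 by r (0.50, permutation test, adjusted p = 0.0378), though not by rank (rho = 0.49, adjusted p = 0.0628). The r was 0.71 within the first and 0.22 within the second kind, 0.30 when only the group was taken out, 0.54 with an adjusted p of 0.0738 without Dox rats 7 and 14, which deviated most after group and kind, and 0.64 with an adjusted p of 0.0164 without Dox rats 5 and 7, which had the highest red cell levels. The summed level of these red cell markers had a median of 12266 over the Veh, 19909 over the Dox and 5888 over the Dox + ABT rats, and 1 Dox rat reached 129837. All 5 were higher in Dox than in Veh and in Dox than in Dox + ABT, and 0 of 5 passed p under 0.01 in either contrast. Slc4a1 averaged 292 normalized counts in Dox and 11.2 in Veh, and its p between these groups was 0.0423, or 0.00264 with library kind as a covariate. The part of blood in the Car7 values was not tested. A relation with the choroid plexus list (r = 0.50, adjusted p = 0.0383, permutation test) fell to 0.40 without Veh rat 2 and Dox rat 14, which deviated most, and to 0.37 without Dox rats 9 and 14, which had the most extreme levels.

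By residual correlation over the 26 rats, the 5 genes most like Car7 among 12128 that averaged 50 or more normalized counts were LOC102555457 (r = 0.88), Slc2a9 (r = 0.88), Pcdhb10 (r = 0.85), Slc25a17 (r = 0.84) and Smim3 (r = 0.84). Slc2a9 encodes a urate transporter, Pcdhb10 a protocadherin and Slc25a17 a peroxisomal carrier. The r of these 5 stood between 0.72 and 0.81 after leaving out the 2 rats farthest from the Car7 median.

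**Figure D1:**
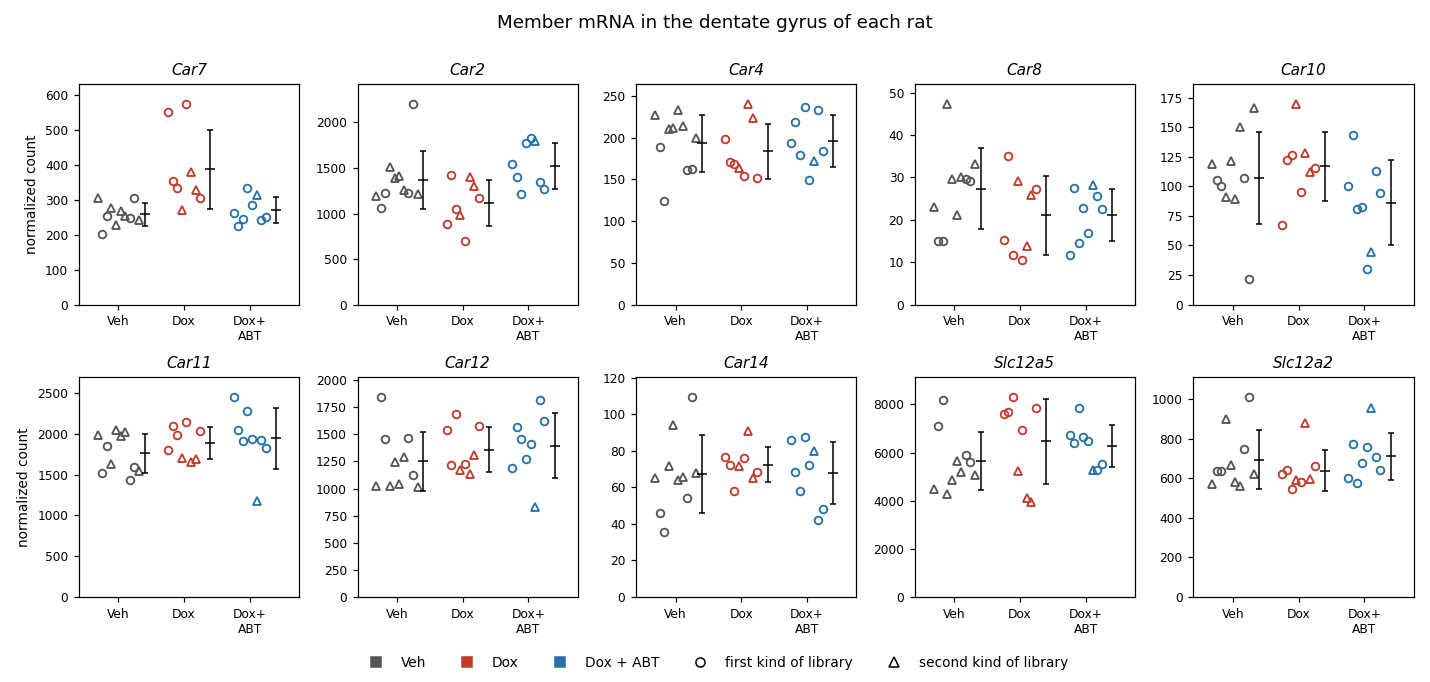
Normalized count (y axis, from 0) of each of the 10 members in each of the 26 rats by group, with circles for the first and triangles for the second kind of library and a black bar for the mean and SD of the group. Car7 reached 551 and 573 in 2 Dox rats against at most 306 in Veh and 335 in Dox + ABT, and Slc12a5 was higher in the circles (5292 to 8316) than in most triangles (3944 to 5647).

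Car2 encodes carbonic anhydrase II, the cytosolic enzyme that is abundant in oligodendrocytes. It ranged from 1060 to 2198 normalized counts in Veh (median 1240), from 698 to 1418 in Dox (median 1107) and from 1216 to 1830 in Dox + ABT (median 1471). The lowest Dox rats, at 698 and 890, were the same 2 rats that were highest in Car7, and 5 of the 8 Dox rats lay below every Dox + ABT rat. Veh rat 6, at 2198, stood above all other rats.

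Car2 averaged 1367 ± 318 (SD) over the 10 Veh rats, 1114 ± 256 (SD) over the 8 Dox rats and 1522 ± 251 (SD) over the 8 Dox + ABT rats. Car2 was lower in Dox than in Dox + ABT, with a difference of -0.47 on the log2 scale (standard error 0.14, 0.723-fold, limma p = 0.00245), which passed the unadjusted threshold of p under 0.01 but not the correction over all genes (adjusted p = 0.183). The exact permutation test over the 16 rats gave p = 0.00730, two-sided, and all 8 Dox rats were below the Dox + ABT median. The difference was -0.50 with library kind as a covariate and -0.53 within the first kind. With a term for the replicate number it was -0.41 (limma p = 0.0790), over the threshold. Without Dox rats 1 and 2 it was -0.31 (limma p = 0.0263, adjusted p = 0.388). Between Dox and Veh the difference was -0.30, with -0.43 within the first kind and -0.15 without Dox rats 1 and 2. Between Dox + ABT and Veh it was 0.17 (95% interval -0.11 to 0.44, limma adjusted p = 0.471).

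Car2 moved with 8 oligodendrocyte markers, among them Mbp, Mog, Mag, Mobp, Cnp, Cldn11 and Ermn. After group and kind of library, r was 0.82 and rho 0.74 over 26 rats (permutation test, adjusted p = 0.0009 and 0.00135), with 0.73 after leaving out Veh rat 6 and Dox + ABT rat 4, 0.93 within the first kind and 0.42 within the second. The summed level of these 8 markers ranged from 43860 to 121882 normalized counts in Veh, from 47519 to 72326 in Dox and from 50871 to 107476 in Dox + ABT. All 8 were lower in Dox than in Veh, 2 of them at p under 0.01, against 2.87% of all genes. Of the 8, 7 were lower in Dox than in Dox + ABT, 1 of them at p under 0.01, against 4.03% of all genes. With the oligodendrocyte score as a covariate, chosen after seeing the data, the Car2 difference between Dox and Dox + ABT was -0.24 (limma p = 0.0152, adjusted p = 0.278). With the score of the astrocyte markers Gfap, Aqp4, Aldh1l1, Slc1a3 and Gja1 it was -0.22 (limma p = 0.117). Between Dox and Veh Car2 differed by -0.07 with the oligodendrocyte score and by 0.03 with the astrocyte score. Of those astrocyte markers, 3 of 5 were lower in Dox than in Veh at p under 0.01, and 2 were higher. All 5 summed to 36226 to 56558 over Veh, 29841 to 37275 over Dox and 34806 to 50607 over Dox + ABT rats. Gfap, the largest part of this sum, averaged 22475 normalized counts over the Veh and 13352 over the Dox rats. The 2 higher markers, Slc1a3 and Gja1, averaged 11149 and 4803 over the Veh and 11381 and 4924 over the Dox rats. Car2 also moved with the astrocyte (r = 0.64), CA pyramidal cell (r = 0.61) and microglial (r = 0.60) lists (permutation test, adjusted p of 0.00695 to 0.0081). Without the 2 rats that deviated most in each list these were 0.51, 0.45 and 0.45, with adjusted p of 0.101, 0.164 and 0.165. Fewer oligodendrocytes and less Car2 mRNA per oligodendrocyte cannot be told apart here.

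**Figure D2:**
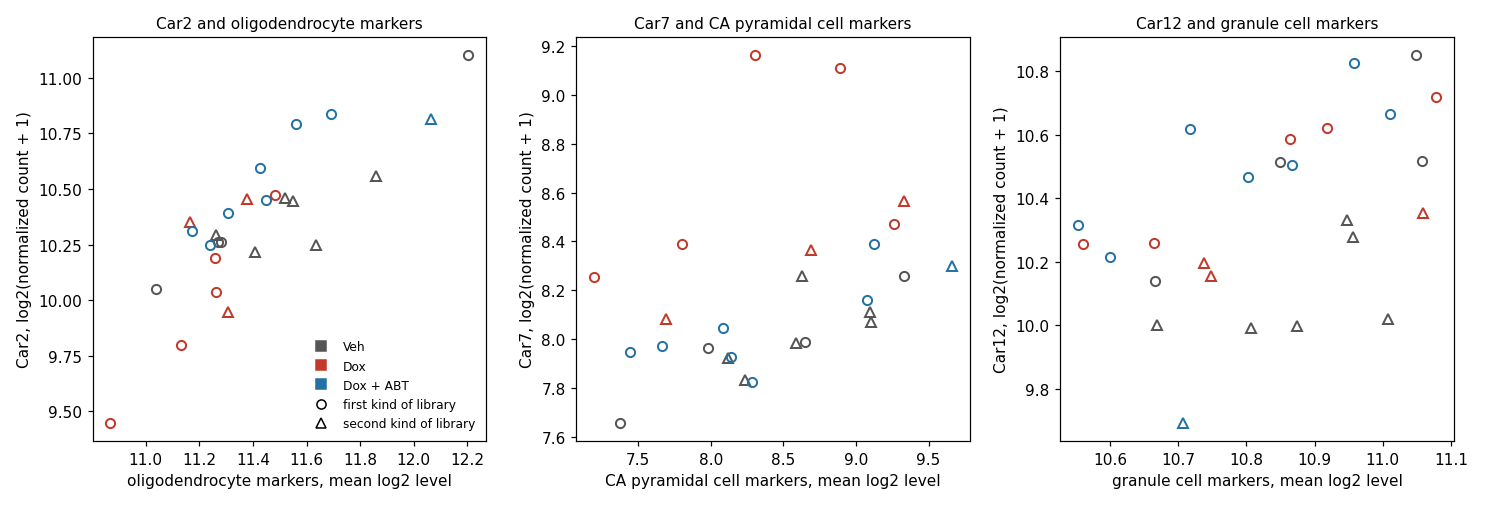
Each point is 1 rat, with log2(normalized count + 1) of Car2, Car7 or Car12 on the y axis and the mean log2 level of a marker list on the x axis, and symbols give the group and the kind of library. Car2 rose along the oligodendrocyte markers (r = 0.82 after group and kind), Car7 along the CA pyramidal cell markers (r = 0.65) with 2 Dox rats above the rest, and Car12 along the granule cell markers (r = 0.77) with the second kind below the first.

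The carbonic anhydrases with an extracellular active site did not pass p under 0.01 in either tested contrast. Car4 encodes an enzyme anchored to the cell surface and known from brain capillaries. It ranged from 124 to 233 normalized counts in Veh, from 152 to 240 in Dox and from 149 to 237 in Dox + ABT. The ranges overlapped, with a difference of 0.03 between Dox + ABT and Veh (95% interval -0.23 to 0.28) and of -0.09 between Dox and Dox + ABT (-0.36 to 0.17). With library kind in the fit these were 0.16 and -0.17. Between Dox and Veh the difference was -0.07, with the opposite sign (0.09) within the first kind. Within the first kind, 7 Dox + ABT rats averaged 199 ± 32.1 (SD) and 4 Veh rats 159 ± 26.9 (SD), a difference of 0.32 (limma p = 0.0339, adjusted p = 0.842), and Dox differed from Dox + ABT by -0.23. Its correlation with the endothelial markers Cldn5, Flt1, Tek and Esam was r = -0.04.

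Car12 and Car14 encode transmembrane enzymes. Car12 ranged from 1017 to 1846 normalized counts in Veh, from 1138 to 1683 in Dox and from 827 to 1813 in Dox + ABT. The groups overlapped, with a difference of 0.15 between Dox + ABT and Veh (95% interval -0.12 to 0.42, limma adjusted p = 0.511) and of -0.02 between Dox and Dox + ABT (-0.31 to 0.27, adjusted p = 0.965), which were 0.01 and -0.03 within the first kind. With arrayWeights, which weights libraries by their fit, the first was 0.28 (limma p = 0.0146, adjusted p = 0.0396). Dox and Veh differed by 0.13, and by -0.02 within the first kind. The spread of Car12 followed the kind of library, at 1467 ± 218 (SD) over the 16 rats of the first and 1107 ± 150 (SD) over the 10 rats of the second. It also followed the granule cell markers (r = 0.77, rho = 0.76, permutation test, adjusted p = 0.0009 and 0.00135), with r = 0.71 after leaving out Veh rat 6 and Dox rat 10 and 0.86 and 0.54 within the kinds. Against the astrocyte, oligodendrocyte, CA pyramidal cell and interneuron lists Car12 had r = -0.66, -0.62, -0.58 and -0.54 (permutation test, adjusted p of 0.0036 to 0.0219). Without the 2 rats that deviated most in each list, adjusted p was 0.0738 to 0.170. Car12 ran against Car7 from rat to rat (r = -0.59, rho = -0.68, permutation test, adjusted p = 0.0199 and 0.0072 over 45 pairs of members), with r = -0.58 and -0.63 within the kinds.

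Car14 ranged from 35.3 to 110 normalized counts in Veh, from 57.9 to 90.7 in Dox and from 42.3 to 87.3 in Dox + ABT. Veh held both the lowest and the highest rat. Its difference was 0.03 between Dox + ABT and Veh (95% interval -0.33 to 0.39) and 0.12 between Dox and Dox + ABT (-0.26 to 0.51), and within the first kind these were 0.19 and 0.13. Dox and Veh differed by 0.16, and by 0.32 within the first kind.

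Car8, Car10 and Car11 encode carbonic anhydrase-related proteins, which keep the fold of the family but lack catalytic activity. Car8, known as a binding partner of the inositol trisphosphate receptor, was the member nearest the detection limit, with 14.9 to 47.2 normalized counts over the Veh, 10.6 to 35.0 over the Dox and 11.8 to 28.2 over the Dox + ABT rats. Its differences were -0.33 between Dox + ABT and Veh (95% interval -0.85 to 0.18) and -0.07 between Dox and Dox + ABT (-0.61 to 0.47), so changes between 0.653-fold and 1.39-fold in the second contrast lay within the interval. Within the first kind both differences were -0.11. Between Dox and Veh the difference was -0.40, and -0.22 within the first kind. Its 2 rows cannot be separated reliably, since the second row took from none to 76.0% of the gene in single rats.

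Car10 encodes a secreted ligand of neurexins. It ranged from 21.2 to 166 normalized counts in Veh, from 67.4 to 169 in Dox and from 30.5 to 144 in Dox + ABT. Low rats occurred in Veh and in Dox + ABT, and 1 Veh rat lay far below the other 9, whose lowest value was 89.2. The difference between Dox and Dox + ABT was 0.53 (95% interval -0.11 to 1.18, limma adjusted p = 0.483), as large as that of Car7 but with a standard error of 0.31. The difference between Dox + ABT and Veh was -0.30 (-0.91 to 0.31, adjusted p = 0.563), and -0.54 without the low Veh rat. Between Dox and Veh it was 0.23 with that rat and -0.01 without it. Within the first kind, which holds that rat, Dox + ABT differed from Veh by 0.26, Dox from Dox + ABT by 0.27 and Dox from Veh by 0.54. Car10 ran against the CA pyramidal cell markers (r = -0.62, permutation test, adjusted p = 0.00643), and r was -0.61 without Veh rat 6 and Dox rat 10 (adjusted p = 0.0205).

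Car11, a secreted relative of Car10, ranged from 1437 to 2043 normalized counts in Veh, from 1660 to 2145 in Dox and from 1176 to 2456 in Dox + ABT. The groups overlapped, and the differences were 0.13 between Dox + ABT and Veh (95% interval -0.09 to 0.35, limma adjusted p = 0.492) and -0.02 between Dox and Dox + ABT (-0.25 to 0.21). Within the first kind of library, 7 Dox + ABT rats averaged 2054 ± 229 (SD) and 4 Veh rats 1602 ± 181 (SD), a difference of 0.36. There limma gave p = 0.000819 and an adjusted p of 0.822, so this difference did not pass the correction. With the kind as a covariate it was 0.07. Dox and Veh differed by 0.11, and by 0.33 within the first kind.

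Slc12a5 varied with the kind of library. It ranged from 4280 to 8181 normalized counts in Veh (median 5406), from 3944 to 8316 in Dox (median 7260) and from 5274 to 7858 in Dox + ABT (median 6424). The 3 lowest Dox rats, at 3944, 4110 and 5249, were all of the second kind and the 5 others stood between 6921 and 8316. Over all groups it averaged 6880 ± 976 normalized counts (SD) over the 16 rats of the first kind and 4809 ± 574 (SD) over the 10 of the second.

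The difference of Slc12a5 was 0.17 between Dox and Veh and 0.17 between Dox + ABT and Veh (95% interval -0.13 to 0.47, limma adjusted p = 0.492). With library kind as a covariate these were 0.05 and -0.09, within the first kind 0.21 and -0.06, and with arrayWeights 0.44 and 0.23. Between Dox and Dox + ABT the difference was 0.00 (95% interval -0.31 to 0.31), 0.14 with the covariate, and 0.27 within the first kind (limma p = 0.0174, adjusted p = 0.151). Slc12a5 showed no correlation with the oligodendrocyte (r = -0.05), astrocyte (r = 0.06) or granule cell (r = -0.05) lists at an adjusted p under 0.05, and ran against the red cell list (r = -0.56, permutation test, adjusted p = 0.019), with r = -0.49 and an adjusted p of 0.124 without Dox rats 7 and 14, and -0.42 and 0.146 without Dox rats 5 and 7. The red cell r was -0.80 (permutation test, adjusted p = 0.00045) when only the group was taken out. Within the first kind it was -0.32 and within the second -0.84. For Slc12a5 the part of blood was not tested. The larger of its 2 rows held 86.9% ± 3.67 of the gene over the Veh, 88.4% ± 3.41 over the Dox and 87.5% ± 4.14 over the Dox + ABT rats (SD), so the share of the rows differed by less than its spread.

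Slc12a2 ranged from 561 to 1013 normalized counts in Veh, from 548 to 881 in Dox and from 576 to 956 in Dox + ABT. The groups overlapped, with 0.04 between Dox + ABT and Veh (95% interval -0.19 to 0.28, limma adjusted p = 0.849) and -0.15 between Dox and Dox + ABT (-0.40 to 0.10, adjusted p = 0.626). Within the first kind these were -0.15 and -0.14. Between Dox and Veh the difference was -0.11, and -0.29 within the first kind. NKCC1 is also made by oligodendrocyte lineage cells, and Slc12a2 correlated with the oligodendrocyte list (r = 0.73, rho = 0.61, permutation test, adjusted p = 0.0009 and 0.0174), but r was 0.51 without Veh rat 6 and Dox + ABT rat 4 and the adjusted p then 0.101.

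The ratio of Slc12a5 to Slc12a2 within a library was added after seeing the data and is given as a description, comparable between rats but not as a ratio of molecules. It ranged from 4.75 to 12.8 in Veh (median 8.01), from 4.67 to 15.2 in Dox (median 11.9) and from 5.52 to 13.6 in Dox + ABT (median 8.58). In the first kind of library the 5 Dox rats stood between 11.8 and 15.2, the 4 Veh rats between 5.54 and 12.8 and the 7 Dox + ABT rats between 7.48 and 13.6. The 3 Dox rats of the second kind, at 4.67 to 8.86, overlapped the 6 Veh rats of that kind, at 4.75 to 9.74, and the lowest Dox rat lay just below the lowest Veh rat.

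**Figure D3:**
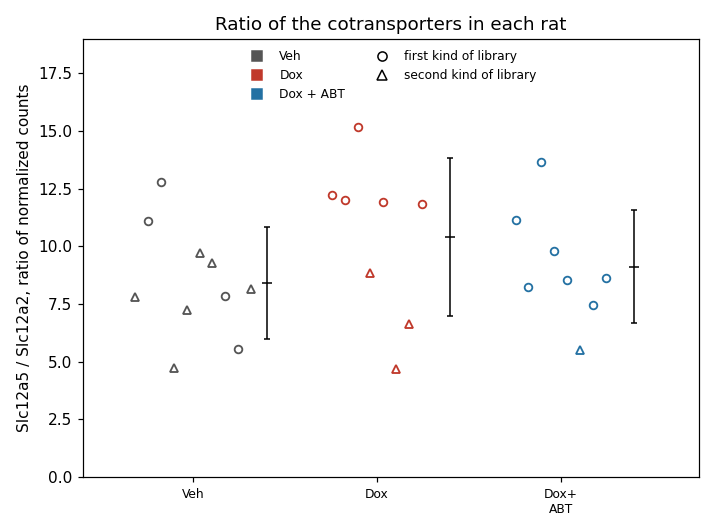
Ratio of the normalized counts of Slc12a5 and Slc12a2 (y axis, from 0) in each rat by group, with circles for the first and triangles for the second kind of library and a black bar for the mean and SD. The 5 Dox circles lie at 11.8 or above, while the 3 Dox triangles lie at 8.86 or below.

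All 10 members averaged 5 or more normalized counts and entered the fit over 15595 genes. Between Dox and Veh, 6 were higher and 4 lower, with a median difference of 0.12 against 0.00 over all genes, and Car7, which this contrast chose, was the 1 member past the p threshold of 0.01 that 2.87% of all genes passed, from which nothing is read. Between Dox + ABT and Veh, 8 were higher and 2 lower with a median of 0.05, and 0 of 10 passed limma's p under 0.01 or an unadjusted p under 0.05, against backgrounds of 7.84% and 22.5% of all genes. With library kind as a covariate 0 of 10 again had p under 0.01, against a background of 1.37%. Between Dox and Dox + ABT, 4 were higher and 6 lower with a median of -0.02, and of the 9 members other than Car7, whose Dox values chose it, Car2 had p under 0.01, against a background of 4.03%. With library kind as a covariate Car2 was again the 1 of these 9 with p under 0.01, against a background of 4.76%. Its call was lost with a term for the replicate number. In this contrast adjusted p ran from 0.183 to 0.999 over the 9, so none passed the correction.

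**Figure D4:**
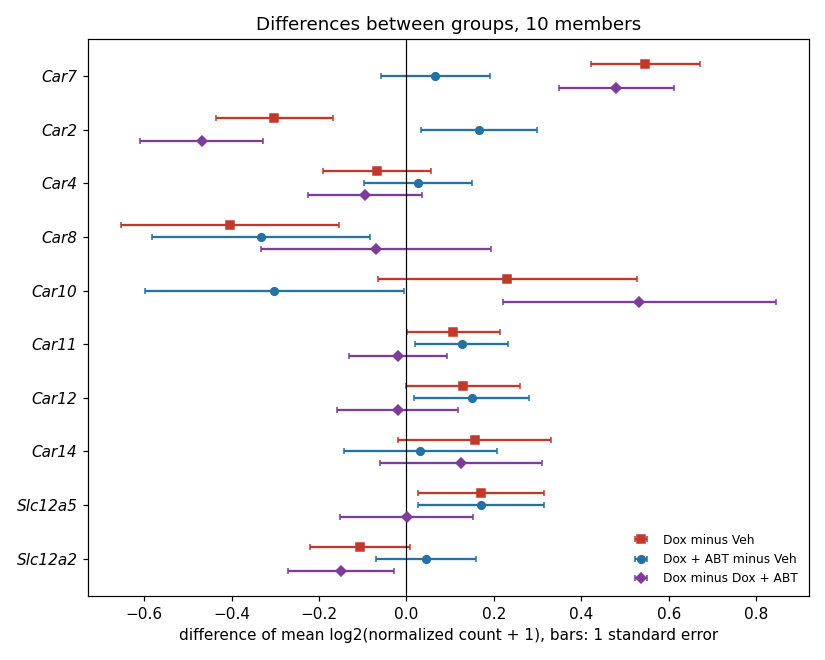
Difference of the group means on the log2(normalized count + 1) scale (x axis) for each member in the 3 contrasts, with bars of 1 standard error. Car7 lies at 0.55 and 0.48 in the contrasts of Dox with Veh and with Dox + ABT and at 0.07 for Dox + ABT with Veh, and Car2 lies at -0.30, -0.47 and 0.17.

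Of the 90 pairs of a member and a marker list, 23 had an adjusted p under 0.05, but only 4 did so without the 2 rats that deviated most in the list after group and kind, and 11 without the 2 most extreme in the list level itself. The 4, which passed both ways, were Car2 with the oligodendrocyte list, Car7 and Car10 with the CA pyramidal cell list and Car12 with the granule cell list. The microglial list Cx3cr1, P2ry12, Tmem119, Aif1, Csf1r and C1qa had 5 of 6 genes lower in Dox than in Veh. Of these 3 had p under 0.01, against 2.87% of all genes. The summed level of the list was 3186 to 5582 in Veh, 2881 to 4577 in Dox and 2884 to 4896 in Dox + ABT. The interneuron list Gad1, Gad2, Slc32a1, Sst and Pvalb ranged from 5635 to 7432, 5225 to 7349 and 6278 to 8047 in the same order, and the endothelial list had medians of 1542, 2100 and 1441. The choroid plexus list was low, with summed levels of 42.8 to 421 over all rats, Folr1 and Kl under the filter and Otx2 not in the values, and of 3 ependymal markers only Ccdc153 passed the filter.

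**Figure D5:**
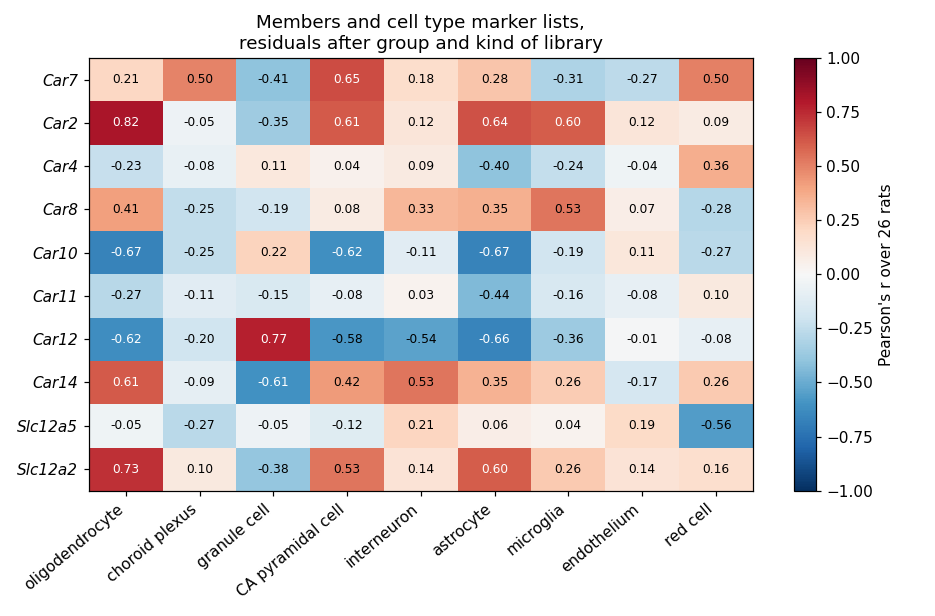
Pearson's r over 26 rats between each member (rows) and the mean log2 level of each of 9 marker lists (columns), after terms for group and kind of library, on a colour scale from -1 to 1. The strongest positive values are Car2 with oligodendrocyte markers (0.82) and Car12 with granule cell markers (0.77), and the strongest negative ones Car10 with astrocyte and oligodendrocyte markers (-0.67 each, and -0.27 and -0.29 without Veh rat 6 and Dox + ABT rat 4).

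Genes that work beside the members were taken from 7 lists of 88 genes, of which 80 were in the values and 74 passed the filter. Of these, 1 was higher and 1 lower at p under 0.01 between Dox and Veh, 1 and 3 between Dox + ABT and Veh, and 1 and 3 between Dox and Dox + ABT, which is 2.70%, 5.41% and 5.41% of the 74, near the shares over all genes. Adjusted p for these calls ran from 0.113 to 0.318, so none passed the correction. The other carbonic anhydrases Car3, Car5b and Car6 passed the filter, and Car1 and Car13 did not. Car3, an enzyme known from muscle and fat, was lower in Dox than in Veh (8.73 ± 2.35 and 15.1 ± 6.17 normalized counts, SD), a difference of -0.68 (limma p = 0.00772). It was -0.62 with library kind as a covariate (p = 0.0158) and -0.63 within the first kind (p = 0.0894), so the call was lost in both. Car6, the secreted enzyme of saliva, was lower in Dox + ABT than in Veh (240 ± 47.7 and 414 ± 155), a difference of -0.70 (limma p = 0.00556), but the difference was -0.22 with library kind as a covariate (p = 0.0810), and Car6 stood at 357 to 626 in the second kind and 161 to 307 in the first.

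The 6 other cotransporters, among them Slc12a3, Slc12a4, Slc12a7, Slc12a8 and Slc12a9, gave 0 calls at limma's p under 0.01 in the 3 contrasts, with 0 of 6 passing an unadjusted 0.05 between Dox and Veh and 3 of 6 between Dox + ABT and Veh, where 10.2% and 22.5% of all genes did. Among 11 kinases and partners of the cotransporters, Oxsr1, a kinase that phosphorylates both NKCC1 and KCC2, was higher by 0.38 in Dox + ABT than in Veh (limma p = 0.00803) and was lower by 0.40 in Dox than in Dox + ABT (p = 0.00743). Within the first kind of library the first of these differences was -0.01 and the second -0.38.

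Among 15 bicarbonate and proton transporters, Slc9a2, a sodium-proton exchanger, rose from a mean of 340 normalized counts in Veh to 500 in Dox (0.57 on the log2 scale, standard error 0.17, limma p = 0.00305, adjusted p = 0.252), with 0.43 when the kind of library was a covariate. Slc4a5, a sodium-bicarbonate cotransporter of the choroid plexus, was lower in Dox than in Dox + ABT (4.93 ± 3.28 and 11.5 ± 4.03 normalized counts, SD), a difference of -1.18 (limma p = 0.00380). It is itself a marker in the choroid plexus list, of which 4 of 5 genes were lower in Dox than in Dox + ABT. Slc4a11 differed by -0.45 in the same contrast (p = 0.00912), and by -0.38 with library kind as a covariate (p = 0.0186).

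Of 15 GABA-A receptor subunits, Gabrb1 was lower in Dox + ABT than in Veh by 0.85 (330 ± 61.5 and 636 ± 250 normalized counts, SD; limma p = 0.00591) and higher in Dox than in Dox + ABT by 0.89 (p = 0.00622), with 753 ± 646 in Dox. Gabrd, the subunit of extrasynaptic receptors of granule cells, was lower in Dox + ABT than in Veh by 0.34 (limma p = 0.00435). With library kind as a covariate the differences from Veh were -0.34 for Gabrb1 and -0.23 for Gabrd, with p of 0.102 and 0.0410, and within the first kind -0.28 and -0.10. The Gabrb1 difference between Dox and Dox + ABT was 0.62 with the covariate and 0.38 within the first kind. The 16 chloride channels gave 0 calls at limma's p under 0.01 in the 3 contrasts, with 1 of 16 under an unadjusted 0.05 in each, a threshold that 10.2%, 22.5% and 12.7% of all genes passed between Dox and Veh, Dox + ABT and Veh, and Dox and Dox + ABT. Clcn1, named after its values were seen, differed by -0.44 between Dox and Veh (p = 0.0423) and by -0.55 when library kind was a covariate (p = 0.00646). The 8 genes of the sodium pump and potassium clearance also gave 0 calls, with 3, 5 and 0 of 8 under an unadjusted 0.05 in the same order.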

How the data were processed

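Dentate gyrus RNA was profiled in 26 rats, 1 library per rat, and groups were taken from the sample labels. The authors selected poly(A) RNA, sequenced it on an Ion Proton instrument, aligned reads to rn6 with STAR (2.5.3a per the submitters' processing notes) in Partek Flow, estimated reads per transcript row and divided them by Median Ratio size factors, and the deposited values are this normalized signal, not raw counts. The authors tested features above 5 counts on average with DESeq2. Here the rows of a gene ID were summed and differences were tested with limma 3.58.1 in R 4.3.3 (variance trend, two-sided) on log2(value + 1), which understates changes of low genes, for 15595 genes averaging 5 or more, with all 26 rats in 1 fit, calls at p under 0.01 and Benjamini-Hochberg adjustment over all genes tested. Estimated reads were 10164700 to 24312600 per library, taken from the smallest step between low values. In single libraries 59.8% to 77.9% of low values were whole multiples of that step, too few to recover counts, so no count test was run.

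Single genes were also compared by exact permutation tests over rats, and members with marker lists by permutation tests of residuals (100000 resamples, seed 1, Python 3.11.15, scipy 1.17.1). The fit was tested on simulated data. The members and gene lists were chosen with earlier results of these data known. Named genes were the 10 members, genes of the 7 pathway lists that passed p under 0.01 (at most 3 per list and contrast), the 5 genes most like Car7 and the markers of lists set beside a member. Clcn1 and the listed carbonic anhydrases and cotransporters without a call were named in addition, after their values were seen. Alternatives were a pseudocount of 0.5 or 5, a minimum mean of 20 or none, TMM and quantile scaling, arrayWeights, no variance trend, the compared groups alone, library kind as a covariate, the first kind alone, a replicate block, the highest row of each gene, and leaving out each rat, and for marker relations taking out the group alone or leaving out the 2 rats that deviated most in the list after group and kind. The block with the kind as a covariate, marker scores as covariates, and leaving out Dox rats 1 and 2 were chosen after seeing the data. A planned comparison of protein sequences was not run. Some listed genes were not in the values used here. A few genes of the lists entered the list scores and counts but are not reported here by name.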

Additional observations from a re-analysis of the deposited data

Results flagged for a closer look

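In 3 of the 30 combinations of a member and a group, 1 rat lay farther from the rest than Dixon's test allows at its 95% level, where chance gives about 1 in 20. Car2 stood at 2198 normalized counts in Veh rat 6, against 1060 to 1506 in the other 9 Veh rats. Car10 stood at 21.2 in the same rat, against 89.2 to 166 in the other 9. Slc12a2 stood at 881 in Dox rat 5, against 548 to 663 in the other 7 Dox rats. Without Veh rat 6, Car10 differed by -0.54 between Dox + ABT and Veh, against -0.30 with it, and Car2 by 0.24 against 0.17. Without Dox rat 5, Slc12a2 differed by -0.22 between Dox and Dox + ABT, against -0.15. None of these 3 differences passed p under 0.01 with or without the rat.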

How the results depend on the processing

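Leaving out each rat in turn changed neither the count of members with p under 0.01 (1 for Dox against Veh, 0 for Dox + ABT against Veh and 2 for Dox against Dox + ABT, the order used below, where Car7 counts in the first and the last by its choice and nothing is read from it) nor which side of the threshold a member lay on, while the count of pathway list genes ran from 1 to 4, 0 to 15 and 1 to 5 against 2, 4 and 4. The count of 15 came without Dox + ABT rat 4, that of 0 without Veh rat 1, that of 4 without Veh rat 10 and that of 5 without Dox + ABT rat 1. Without Dox + ABT rat 4, Car11 and Car12 between Dox + ABT and Veh were 0.23 and 0.25, against 0.13 and 0.15. Car10 between Dox and Veh ran from -0.0073 (without Veh rat 6) to 0.34, against 0.23. Other values reversed in direction for differences near 0: Car4 (-0.0418 to 0.0808), Car14 (-0.0626 to 0.12) and Slc12a2 (-0.0190 to 0.11) between Dox + ABT and Veh, and Car8 (-0.19 to 0.0457), Car11 (-0.12 to 0.0330), Car12 (-0.12 to 0.0385) and Slc12a5 (-0.06 to 0.0942) between Dox and Dox + ABT. Pseudocounts, no filter, TMM, no variance trend and the highest row of each gene changed no count by over 1.5 times and reversed no member. The cause was not tested for any change below. Shares over all genes are given only for library kind as a covariate, so nothing is read from the counts of calls under the other settings.

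In order of the 3 contrasts, the pathway count was 1 in the first with a mean of 20 or with the compared groups alone, and 7 in the second with quantile scaling, where Car14 (Dox + ABT with Veh) was -0.0093 and Slc12a5 (Dox with Dox + ABT) -0.13. With arrayWeights, members numbered 2 in the first contrast (Car7 and Slc12a5), pathway genes 20 and 30 in the first and second, and Car4 and Car14 (Dox + ABT with Veh) were -0.060 and -0.17 and Car11 (Dox with Dox + ABT) 0.015. The weights gave, between Dox and Veh, Slc12a5 0.44 against 0.17, Car4 -0.26 against -0.07, Car10 0.09 against 0.23 and Car14 -0.01 against 0.16, and the first kind alone turned Car4 (0.09) and Car12 (-0.02). With library kind as a covariate, pathway genes numbered 0 and 2 in the second and the third contrasts, Car12 and Slc12a5 (Dox + ABT with Veh) were -0.050 and -0.086, and Car11 and Car12 (Dox with Dox + ABT) 0.012 and 0.085. In the first kind alone, members numbered 2 in the first contrast (Car7 and Car11) and 1 in the second (Car11), pathway genes 7, 0 and 8, and Car10, Slc12a5 and Slc12a2 (Dox + ABT with Veh) were 0.26, -0.056 and -0.15.

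The labels do not say whether rats with the same replicate number belong together. Same-numbered rats deviated together at r over 0.1 in 3 of 8 pairs (Dox + ABT with Veh), 2 of 3 (Dox with Dox + ABT) and 1 of 5 (Dox with Veh). These pairs are too few to settle it. With a replicate block, the third contrast held 1 member (Car7) and 2 pathway genes, Car2 (Dox with Dox + ABT) was -0.41 and no longer under 0.01, Car7 and Car14 (Dox + ABT with Veh) were -0.013 and -0.010, and Car10 and Slc12a2 (Dox with Dox + ABT) -0.052 and 0.034. Between Dox and Veh the block turned Car10 to -0.23 and Slc12a2 to 0.05. With the block and library kind as a covariate, members numbered 1 in the third contrast and pathway genes 0 in the second, Car7, Car10, Car12 and Slc12a5 (Dox + ABT with Veh) were -0.058, 0.14, -0.046 and -0.095, and Car10, Car11 and Slc12a2 (Dox with Dox + ABT) -0.16, 0.0098 and 0.0088. Between Dox and Veh, Car10, Car12 and Slc12a2 turned in this setting, to -0.02, -0.10 and 0.10.

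In settings chosen after seeing the data, the differences were as follows. Without Dox rats 1 and 2, members numbered 0 in the third contrast, pathway genes 0 and 2 in the first and the third, and Car8 and Slc12a5 (Dox with Dox + ABT) were 0.12 and -0.073. With the oligodendrocyte score, members numbered 1 (Car7) in the third contrast, pathway genes 0 and 8 in the first and second, and Car8, Slc12a5 and Slc12a2 (Dox with Dox + ABT) were 0.16, -0.080 and 0.012. This score also turned Car10, Car12 and Slc12a2 between Dox and Veh, to -0.12, -0.05 and 0.06, and Car14 was 0.39 against 0.16. With the astrocyte score, members numbered 1 (Car7) in the third contrast, pathway genes 1 and 2 in the first and the third, Car4 (Dox + ABT with Veh) was -0.023, and Car8, Car10 and Slc12a2 (Dox with Dox + ABT) were 0.14, -0.10 and 0.054. Between Dox and Veh, Car2, Car10, Car11, Car12 and Slc12a2 turned with this score, to 0.03, -0.62, -0.06, -0.09 and 0.17. With the CA pyramidal cell score Slc12a5 (Dox with Dox + ABT) was -0.0053. The 23 pairs of a member and a marker list became 4 without the 2 rats that deviated most and 11 without the 2 most extreme in the list level, an alternative chosen after seeing the data. Depth limits Car8 most.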
